A study of Homo sapiens with 6 samples.

Results

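The 8 genes of telomerase and shelterin were examined for open chromatin: TERT and TERC, which encode the protein and the RNA of telomerase, and TERF1, TERF2, TERF2IP, POT1, TINF2 and ACD, which encode the shelterin proteins TRF1, TRF2, RAP1, POT1, TIN2 and TPP1. They were chosen by name, out of 20034 genes tested (20033 protein-coding genes and TERC), and every peak that overlapped the RefSeq span of a gene extended by 50 kb to each side was taken. The data are ATAC-seq peak lists, in which a transposase marks accessible DNA, made on isolated Jurkat nuclei; Jurkat is an immortal line grown from a human T-cell leukaemia. The 3 simulated microgravity libraries (SMG 1 to SMG 3) were set against 3 normal gravity libraries (NG 1 to NG 3). Per the labels, each library came from 50000 cells whose nuclei were tagged for 30 min at 37 °C, and in the SMG group the nuclei, not intact cells, were turned in a random positioning machine at 30 degrees per second for 30 min. All libraries come from 1 cell line, and the labels do not say that they came from separate cultures, so the p-values below weigh the groups against a spread between libraries that may be purely technical.

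The SMG libraries held 42222, 42399 and 39624 peaks and the NG libraries 37782, 43713 and 40601. The gene windows held 39, 39 and 37 of these peaks in SMG 1 to SMG 3, and 34, 35 and 35 in NG 1 to NG 3. Peaks that overlapped by at least 1 bp were merged into 69562 regions across the 6 libraries, of which 46 lay in the windows. The lists hold no read counts. The lowest background pileup recovered from the deposited folds and p-values, a stand-in for depth, was 1.59, 1.73 and 1.59 fragments per base in SMG 1 to SMG 3, and 1.17, 1.77 and 1.42 in NG 1 to NG 3, so that NG 1 was the shallowest. Peak names of SMG 3 alone carry the word "normalized". Of 10 T cell markers, 9 had a peak at the gene start in all 6 libraries, and CD2 had one in the 3 SMG libraries and in 0 NG libraries. The groups did not overlap at CD2 and CD3E, both higher in the SMG libraries and both named here for their values (exact permutation p = 0.1, two-sided, adjusted p = 1 by Benjamini-Hochberg), as at 9.78% of all genes with a start peak. Of 12 markers of B, myeloid and other cells, 10 had none in any library, COL1A1 had one in all 6 and KRT5 in 1 SMG library. The shares over all genes tested were 47.0% with a start peak in all 6 libraries and 40.0% with none.

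Telomerase is a reverse transcriptase that adds the telomere repeat to chromosome ends, copying a template within its own RNA. Shelterin covers that repeat: TRF1 and TRF2 bind the double strand, POT1 binds the single strand, TIN2 bridges them, TPP1 ties POT1 to TIN2 and recruits telomerase, and RAP1 rides on TRF2. Most somatic cells keep TERT silent, whereas TERC and the shelterin genes are broadly expressed. Leukaemic lines usually keep telomerase active.

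The 300 bases around 4 starts that lay under a peak in every library are shown first, because they carry the start peaks of the shelterin genes described below. The sequences are RefSeq's, build GRCh38.p14, from 250 bases before to 50 bases after the start, and 4 of the 7 genes with a start peak are printed. They are TERF2IP on chr16:75647523-75647822, plus strand, POT1 on chr7:124929776-124930075, minus strand, TINF2 on chr14:24242625-24242924, minus strand (the upstream of 2 listed starts), and ACD on chr16:67660211-67660510, minus strand. Capitals mark every match, on either strand, of the GC box GGGCGG, the ETS motif CCGGAAG or the CCAAT box CCAAT.
TERF2IP: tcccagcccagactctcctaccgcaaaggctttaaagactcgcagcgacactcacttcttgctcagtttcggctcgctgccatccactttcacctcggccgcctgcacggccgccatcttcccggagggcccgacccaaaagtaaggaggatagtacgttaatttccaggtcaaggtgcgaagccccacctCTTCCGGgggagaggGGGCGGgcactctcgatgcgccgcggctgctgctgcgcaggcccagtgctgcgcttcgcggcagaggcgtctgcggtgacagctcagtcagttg
POT1: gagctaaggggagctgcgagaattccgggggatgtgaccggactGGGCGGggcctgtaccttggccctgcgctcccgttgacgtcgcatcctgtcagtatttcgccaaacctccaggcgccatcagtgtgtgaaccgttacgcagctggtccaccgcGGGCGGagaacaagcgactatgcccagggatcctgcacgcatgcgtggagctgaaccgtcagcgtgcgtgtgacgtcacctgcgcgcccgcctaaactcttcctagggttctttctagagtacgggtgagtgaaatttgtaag
TINF2: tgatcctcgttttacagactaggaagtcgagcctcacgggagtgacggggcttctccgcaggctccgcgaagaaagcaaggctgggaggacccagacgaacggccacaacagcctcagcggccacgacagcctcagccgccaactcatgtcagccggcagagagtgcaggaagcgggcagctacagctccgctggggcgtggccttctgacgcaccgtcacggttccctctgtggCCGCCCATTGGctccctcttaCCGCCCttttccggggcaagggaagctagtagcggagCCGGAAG
ACD: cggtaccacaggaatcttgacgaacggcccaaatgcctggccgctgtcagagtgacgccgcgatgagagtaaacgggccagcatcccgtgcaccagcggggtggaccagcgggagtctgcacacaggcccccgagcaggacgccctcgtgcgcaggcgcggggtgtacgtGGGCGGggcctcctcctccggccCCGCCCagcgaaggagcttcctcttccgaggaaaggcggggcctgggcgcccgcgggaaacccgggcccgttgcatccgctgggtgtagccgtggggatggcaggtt
All 300 bases lay under peaks in all 6 libraries at each of the 4 genes, and the summit of the start peak fell inside them in all 6 libraries at TERF2IP and POT1 and in all but NG 1 at TINF2 and ACD. A GC box was present in each of them, with 1 site in TERF2IP and 2 each in POT1, TINF2 and ACD, and 58.5% of 15841 protein-coding promoters of the same length hold one. The ETS motif stood in TERF2IP and TINF2, against 14.2% of all promoters, and the CCAAT box in TINF2, against 36.4%. The promoter of TERT, which had no peak, held 3 GC boxes and was the 1 promoter of the 5 members in the table with the E-box CACGTG (8.88% of all promoters). None of the 5 held the AP-1 motif TGANTCA (5.75% of all promoters), the palindromic NRF1 motif (1.75%), TATAAA (9.63%) or the telomere repeat unit TTAGGG (8.66%). In TINF2 the CCAAT box adjoins 1 of the GC boxes without overlap, and its second listed start gave the same motif counts. These matches describe letters and show no binding.

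At the gene starts, 6 of the 8 genes had a called peak in all 6 libraries, TERF2 in 5 and TERT in 0. Over all genes tested 47.0% had a start peak in all 6 libraries and 40.0% in none. A start peak is the highest-scoring peak within 1 kb of a RefSeq start. Where the promoter table used here had no entry, either end of the gene was taken. These were 4193 genes, with TERC, TERF1 and TERF2 among them. Other named genes such as CD3E, COL1A1, NBN, TNKS and ZBTB10 were placed in this way too, so their peak may lie at the far end of the gene. Each peak is given as its score percentile, its rank by −log10 q-value within its own library from 0 (no peak) to 100, because scores, folds and q-values move with depth.

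TERT, the catalytic subunit, lies on chromosome 5 (1253167 to 1295068, minus strand, hg38). No library of either group had a peak within 1 kb of its start at 1295068, so its start percentile was 0 in SMG 1, SMG 2, SMG 3, NG 1, NG 2 and NG 3. The nearest region lay 3854 bp inside the gene and was a peak of SMG 1 alone, at percentile 18.6. The nearest region held by all 6 libraries lay 17094 bp upstream. Signal under the calling threshold cannot be seen in a peak list, so the absence of a peak is not evidence that the TERT start was closed.

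The TERT window still held 10 regions, 5 of them in every library, and none of those 5 was within 1 kb of a gene start in the tables used. Inside the gene, near its 3′ end, a region 39424 bp from the start (1254795 to 1255644) stood at percentiles of 68.9, 82.4 and 49.4 in SMG 1 to SMG 3, and 72.4, 77.8 and 79.7 in NG 1 to NG 3. SMG 2 was the highest library there and SMG 3 the lowest, so the groups overlapped. Upstream of TERT, in the interval before CLPTM1L, 3 regions followed each other. The strongest, 20543 bp from the TERT start (1315611 to 1317135), stood at 91.8, 92.8 and 97.7 in SMG 1 to SMG 3, and 94.6, 95.0 and 93.7 in NG 1 to NG 3. Its mean of 94.3 lay above the mean start percentiles of POT1, TERF2IP and ACD given below, and SMG 3 was the highest library. A region at 1312162 to 1312591 had percentiles of 54.0, 59.8 and 49.0 in the SMG libraries, and 52.2, 66.1 and 67.7 in the NG libraries. The region between them, at 1313066 to 1313481, stood at 38.4, 45.3 and 40.9 in the SMG libraries, against 1.24, 40.0 and 30.2 in the NG libraries, with NG 1 far below the other libraries. The last region held by all 6, within CLPTM1L (1335913 to 1337217), ran from 72.4 to 78.3 in the SMG libraries and from 71.5 to 79.8 in the NG libraries. A further region within CLPTM1L (1330574 to 1331079) was weak, at 5.09, 26.9 and 22.2 in the SMG libraries, against 0, 0 and 31.5 in the NG libraries, so NG 3 alone kept it from being present in all SMG and no NG libraries.

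TERC, the template RNA, is a gene of 451 bp on chromosome 3 (169764610 to 169765060), and 1 region covered it whole (169764282 to 169765341). Its percentiles were 82.0, 83.2 and 81.0 in SMG 1 to SMG 3, and 78.5, 82.5 and 74.8 in NG 1 to NG 3. The groups overlapped through NG 2, which exceeded SMG 1 and SMG 3. Summits in the 6 libraries lay 7 to 24 bp beyond the higher-coordinate end of the gene, a spread of 17 bp. The mean was 82.0 ± 1.13 in the SMG group and 78.6 ± 3.85 in the NG group (SD, n = 3 each), a difference of 3.44 percentile points (exact permutation p = 0.3, two-sided) that ran from 1.55 to 5.40 when 1 library was left out. The strongest region of its window was the start of MYNN, a zinc finger gene 7638 bp away, at 95.9 to 98.2 in the SMG libraries and 97.0 to 99.0 in the NG libraries. The shared start of LRRC34 and LRRIQ4 was held by all 6 libraries at a mean percentile of 84.7, and a weaker region 4932 bp from TERC (169759163 to 169759678) at 28.2.

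**Figure D1:**
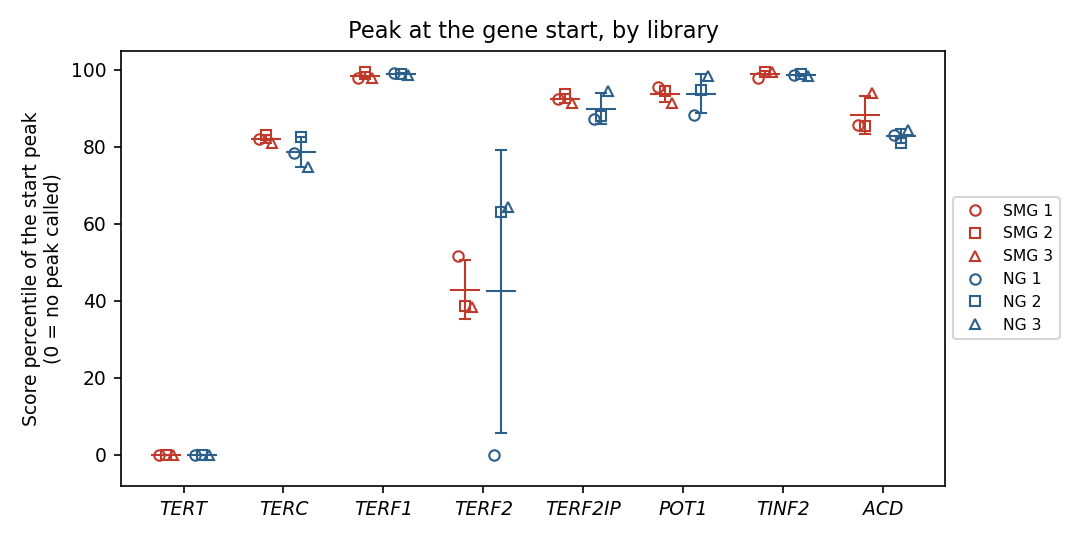
Score percentile of the start peak (vertical axis, 0 meaning that no peak was called) for the 8 genes, with 3 SMG libraries to the left of 3 NG libraries at each gene; bars are the mean and SD. TERT is at 0 throughout, and the groups are separate at ACD alone. By this percentile TERF2 is the lowest of the genes with a peak, and it is at 0 in NG 1.

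TERF1, which encodes the repeat-binding protein TRF1, had 1 of the strongest start peaks (chromosome 8, region 73008329 to 73009383). Its percentiles were 97.8, 99.5 and 98.0 in SMG 1 to SMG 3, and 99.2, 99.1 and 98.8 in NG 1 to NG 3. SMG 2 was the highest of all and the other SMG libraries the lowest, so the groups overlapped. The group means were 98.4 ± 0.911 in the SMG group and 99.0 ± 0.213 in the NG group (n = 3 each, SD; two-sided exact permutation p = 0.4). The summits lay 4 to 27 bp outside the lower-coordinate end of the gene. The other region of its window, 21472 bp from the gene and near no gene start (72986601 to 72987392), was held by all 6 libraries at percentiles of 76.0 to 91.2 in the SMG group and 86.8 to 89.3 in the NG group.

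TERF2 encodes TRF2, the protein that keeps chromosome ends from being joined. It had the lowest mean start percentile of the 7 genes with a start peak (chromosome 16, region 69385800 to 69386382). Its percentiles were 51.7, 38.8 and 38.3 in SMG 1 to SMG 3, and 0, 63.2 and 64.3 in NG 1 to NG 3. NG 1 had no peak, while the other NG libraries lay above every SMG library. Ranked by the deposited fold enrichment, TERF2 stood at 72.2 in NG 2 and 71.0 in NG 3. TERC stood at 65.2 and 55.0 in these libraries, and ACD at 59.2 and 66.0, so that TERF2 was above both. In SMG 1 to SMG 3 TERF2 stayed below both by fold rank, at 60.8, 47.2 and 52.6. The recovered summit pileup was 14 to 22 fragments in the 5 libraries with a peak, against 34 to 142 at the other 6 genes, and NG 1 was the shallowest library; the part of depth in the missing peak was not tested. The means were 42.9 ± 7.60 in the SMG group and 42.5 ± 36.8 in the NG group (n = 3 each, SD; two-sided exact permutation p = 1), and without NG 1 the difference was −20.8 points (exact permutation p = 0.2). The strongest region of the window was the start of CYB5B, a cytochrome b5 gene 38062 bp away, with a mean percentile of 89.1. The start of PDF, the shared start of COG8 and NIP7 and the start of VPS4A were held by all 6 libraries too, at means of 52.9, 72.1 and 65.0.

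TERF2IP encodes RAP1, the partner of TRF2, and its start lies 108 bp from that of KARS1, the lysyl-tRNA synthetase gene, under the same peak (chromosome 16, region 75647323 to 75648719). The peak therefore cannot be assigned to 1 of the genes. Percentiles were 92.6, 93.7 and 91.3 in SMG 1 to SMG 3, and 87.2, 88.0 and 94.6 in NG 1 to NG 3. NG 3 was the highest library and the other NG libraries the lowest, so the groups overlapped. The means were 92.5 ± 1.18 in the SMG group and 90.0 ± 4.06 in the NG group (n = 3 each, SD; two-sided exact permutation p = 0.4). Summits lay from 30 bp before to 30 bp after the TERF2IP start. The other region held by all 6, at the start of ADAT1, a tRNA deaminase gene, was among the steadiest of the windows, at 87.0 to 88.8 in the SMG libraries and 85.6 to 88.1 in the NG libraries.

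POT1, the single-strand binding protein, lies on chromosome 7 (124822386 to 124929825) and is the longest of the 8 genes at 107440 bp. Its start region (124929428 to 124930287) is shared with the antisense RNA gene POT1-AS1, whose start is 48 bp away. Percentiles were 95.5, 94.6 and 91.5 in SMG 1 to SMG 3, and 88.3, 94.8 and 98.3 in NG 1 to NG 3. The NG libraries held both the lowest and the highest value, and the means were 93.9 ± 2.09 in the SMG group and 93.8 ± 5.06 in the NG group (n = 3 each, SD; two-sided exact permutation p = 1). The deposited fold enrichment at the summit was 10.0 to 11.4 in the SMG libraries, against 11.4 in NG 2, 15.3 in NG 3 and a lower value in NG 1. The other 7 regions of the window all lay within the gene, were held by 1 or 2 libraries each and had percentiles of at most 40.0.

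TINF2, which encodes the bridge TIN2, had the highest mean start percentile of the 8 genes (chromosome 14, region 24241974 to 24243204). Percentiles were 98.0, 99.4 and 99.5 in SMG 1 to SMG 3, and 98.6, 99.1 and 98.6 in NG 1 to NG 3. SMG 1 was below every NG library and the other SMG libraries above them. The means were 99.0 ± 0.827 in the SMG group and 98.8 ± 0.274 in the NG group (n = 3 each, SD; two-sided exact permutation p = 0.8). The window of TINF2 was dense: 6 of its 8 regions were present in every library, all at gene starts, namely TM9SF1, CHMP4A, MDP1, a region at GMPR2 and NEDD8, TINF2 itself and RABGGTA. Next to TINF2 itself, the strongest of these was at CHMP4A, an ESCRT-III subunit gene, with a mean percentile of 96.3, followed by RABGGTA at 91.7, GMPR2 and NEDD8 at 91.2 and MDP1 at 79.1. The region at TM9SF1 (24194886 to 24196159) stood at 67.6, 73.9 and 49.5 in SMG 1 to SMG 3, against 76.3, 80.1 and 78.4 in NG 1 to NG 3. All SMG libraries were below all NG libraries there, with a difference of −14.6 points (exact permutation p = 0.1, two-sided, the smallest p that 3 against 3 libraries allow; adjusted p = 1 by Benjamini-Hochberg over all regions). Without SMG 3, the lowest library, the difference was −7.54 points, and the groups still did not overlap. Groups did not overlap at 10.4% of the regions held by all 6 libraries.

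ACD, which encodes TPP1, the recruiter of telomerase, was the 1 member whose groups did not overlap at the gene start (chromosome 16, region 67659735 to 67661050). Its percentiles were 85.6, 85.3 and 94.1 in SMG 1 to SMG 3, and 83.1, 81.0 and 84.4 in NG 1 to NG 3. Every SMG library lay above every NG library, but SMG 1 and SMG 2 by about 1 point and SMG 3 by much more. The means were 88.3 ± 4.97 in the SMG group and 82.8 ± 1.72 in the NG group (SD, n = 3 each), a difference of 5.48 points (exact permutation p = 0.1, two-sided; adjusted p = 1 by Benjamini-Hochberg over 12029 genes). Groups did not overlap at 9.78% of the genes with a start peak in at least 1 library, with SMG libraries higher at 3.9% and lower at 5.88%, so 1 of 7 members is near the background. Ranked by the deposited fold enrichment in place of the q-value, ACD no longer separated the groups, with 66.2, 64.9 and 85.7 in the SMG libraries and 64.5, 59.2 and 66.0 in the NG libraries. Without SMG 3 the difference was 2.61 points (exact permutation p = 0.2, two-sided). The start of PARD6A, a cell polarity gene, lies 700 bp from that of ACD under the same peak, so that the peak cannot be assigned to 1 of them.

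The region at the start of CARMIL2, a regulator of actin capping and T cell costimulation (67644729 to 67645725), stood at 74.3, 46.6 and 36.5 in SMG 1 to SMG 3, against 1.82, 35.4 and 37.0 in NG 1 to NG 3. SMG 3 lay below NG 3, so the groups overlapped, and the difference of 27.7 points came with an exact permutation p of 0.2, two-sided. It was 16.8 points without SMG 1, the highest library, and 16.2 points without NG 1, the lowest. The region at C16orf86 and ENKD1 was held by all 6 libraries at a mean of 85.6. ACD had 4 peaks in the window in each SMG library and 3 in each NG library, a difference without overlap (exact permutation p = 0.1, two-sided; adjusted p = 1 by Benjamini-Hochberg over 18908 genes), as at 2.85% of the genes with a window peak (1.95% with more in the SMG libraries and 0.894% with fewer). In merged regions the counts were 4, 3 and 3 in SMG 1 to SMG 3 and 3 in each NG library: the extra peak was a separate region in SMG 1 alone, and in SMG 2 and SMG 3 a region called as 2 peaks.

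By mean start percentile the order was TINF2 (98.9), TERF1 (98.7), POT1 (93.8), TERF2IP (91.2), ACD (85.6), TERC (80.3), TERF2 (42.7) and TERT (0). The ranges over 6 libraries overlapped between each gene and the next, except between TERC and TERF2, and TERF2 reached TERT through NG 1 alone. Ranked by the deposited fold enrichment, TERC and TERF2 overlapped too, with TERC from 55.0 to 65.2 and TERF2 up to 72.2. Among the genes with a start peak in all 6 libraries the median of this mean was 80.9; TINF2 lay above 97.1% of them, TERF1 above 96.7%, POT1 above 81.7%, TERF2IP above 74.0%, ACD above 59.7% and TERC above 49.2%. The median SMG minus NG difference was 0.41 points over the 7 members with a start peak and −0.32 over all 12029 genes. The smallest unadjusted p over the members was 0.1, the smallest that this exact permutation test can give.

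The start peak with the lowest mean percentile was also the narrowest. The start peak of TERF2 was 297 to 568 bp wide in the 5 libraries that held it, which is percentile 26.9 to 61.1 of the peak widths in their libraries. Those of the other 6 genes were 643 to 1375 bp wide, at percentiles of 71.8 to 99.0. Start peaks of all genes open in every library had a median width of 697 to 830 bp by library. Summits were reproducible to 17 bp at TERC and 23 bp at TERF1, and varied by 129 bp at POT1 and 376 bp at ACD. At TINF2 they ran from position 24242357 in NG 1 to 24242710 in SMG 3. At TINF2 and ACD the spread came from NG 1. Its summits lay 266 bp inside the nearer listed TINF2 start (24242623) and at −429 bp from the ACD start, on the side of PARD6A.

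**Figure D2:**
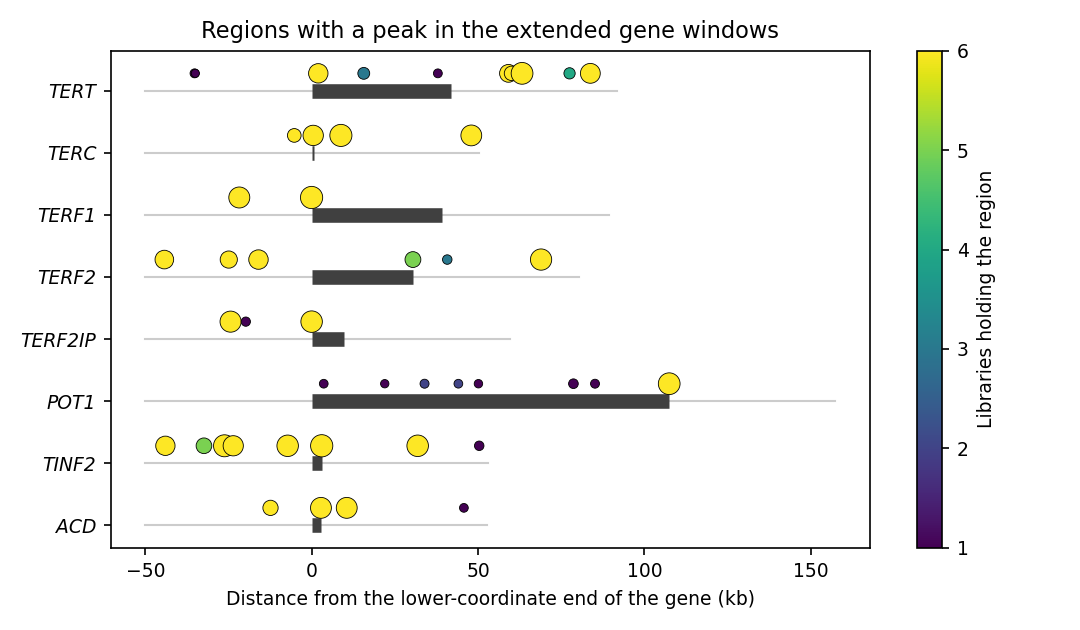
The 46 regions in the gene windows by distance of the strongest summit from the lower-coordinate end of each gene (kb). Dark bars are gene spans, grey lines the 50 kb extensions, colour the number of libraries that hold a region and size its mean percentile. TERT has no region at its right-hand end, where its start lies, and POT1 has weak regions along its length.

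Of the 46 regions, 27 were held by all 6 libraries and 12 by 1 library. Over all 69562 regions 34.6% were held by all 6 and 34.9% by 1. In the windows 20 of the 27 constant regions lay within 1 kb of a gene start, and the other 7 comprised 5 in the TERT window and 1 each in those of TERC and TERF1. Of the 19 regions held by 1 to 5 libraries, 17 were away from gene starts; the exceptions were the start peak of TERF2 and a region at TSSK4 in the TINF2 window, and both were missing in NG 1 alone. No region was present in all SMG and no NG libraries, or the reverse, where the shares over all regions were 0.411% and 0.26%. Groups did not overlap in percentile at 2 of the 46 regions, the one at ACD, higher in the SMG libraries, and the one at TM9SF1, lower in them, where 5.46% of all regions had groups that did not overlap (2.94% higher in the SMG libraries and 2.52% lower).

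**Figure D3:**
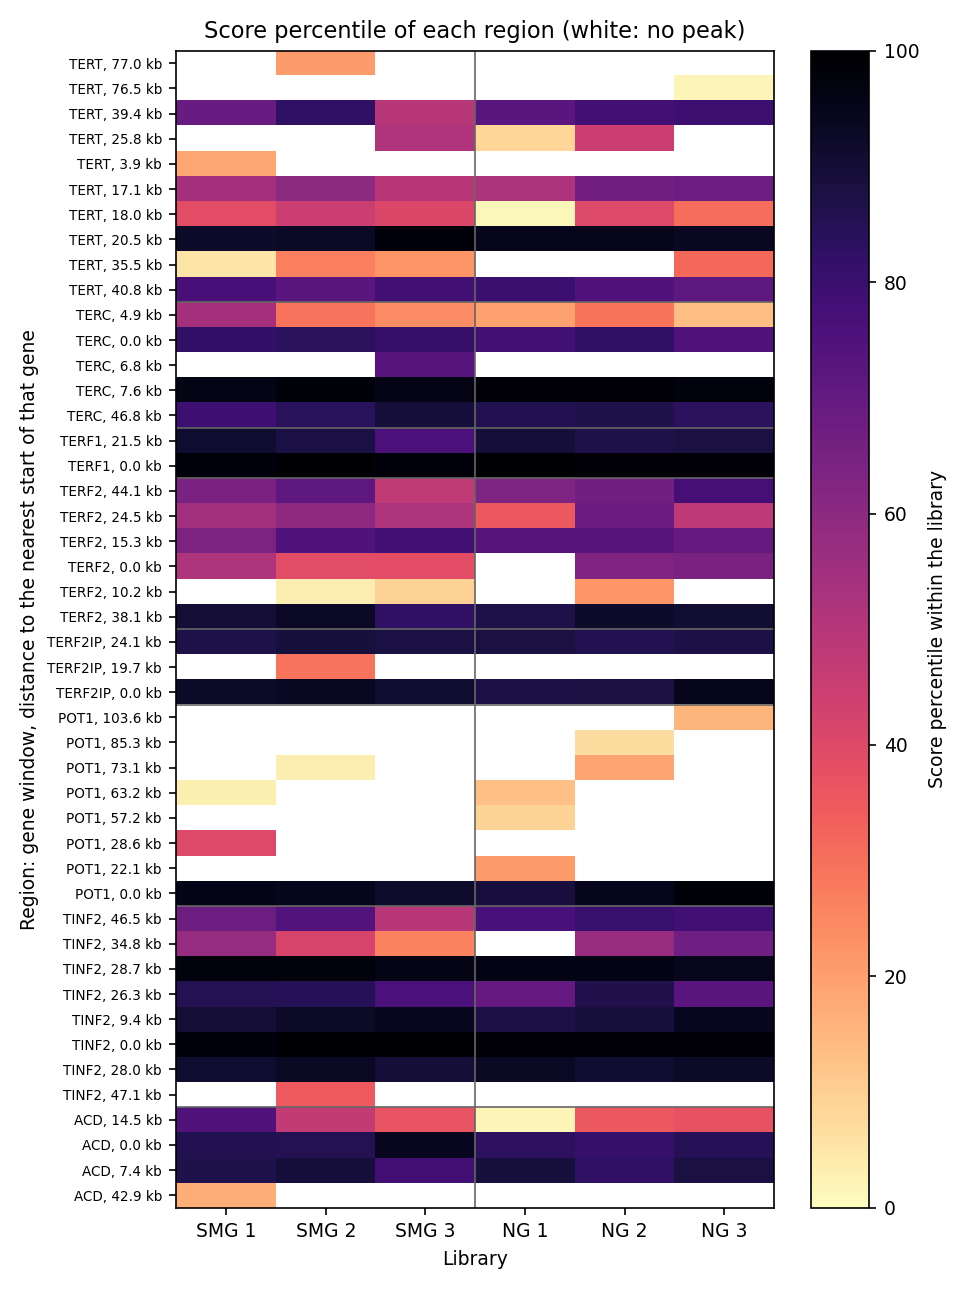
Score percentile of each of the 46 regions (rows, labelled by gene window and distance to the nearest start of that gene) in the 3 SMG libraries (left) and 3 NG libraries (right); white means no peak. Constant rows fill all columns, the POT1 rows away from its start are mostly white, and the row of the TERF2 start is white in NG 1.

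In window peak counts the groups overlapped at every member except ACD. TERT had 9, 8 and 9 window peaks in SMG 1 to SMG 3 and 7, 7 and 8 in NG 1 to NG 3, a difference of 1.33 peaks in which SMG 2 equalled NG 3 (exact permutation p = 0.2, two-sided). POT1 had 3, 2 and 1 in the SMG libraries against 4, 3 and 2 in the NG libraries (exact permutation p = 0.5, two-sided), and TERF1 had 2 in each of the 6. TERC, TERF2, TERF2IP and TINF2 differed by 0.33 to 0.67 peaks, with exact permutation p-values of 0.4 to 1. In covered bases the groups overlapped at all 8 members, beside 8.16% of the genes without overlap (6.66% higher in the SMG libraries and 1.49% lower). The largest difference in cover was at TINF2, with 6578 ± 398 bp in the SMG group and 5787 ± 900 bp in the NG group (n = 3 each, SD; two-sided exact permutation p = 0.2), and the smallest at TERF1, with 1635 ± 83.4 bp and 1642 ± 80.5 bp in the same order (exact permutation p = 0.9). Over all genes with a window peak the median SMG minus NG difference was 118 bp, and NG 1 had the fewest peaks of the 6 libraries.

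The 63 other genes listed were genes of telomere maintenance and 13 regulators of the TERT promoter. Of the 63, 56 had a start peak in all 6 libraries, 2 in some and 5 in none. Their median mean percentile was 82.7. Of all genes tested, 47.0% had a start peak in all 6 libraries and 40.0% in none. The 7 genes of the CST complex and its polymerase, which fill in the complementary strand, all had one throughout, the highest at PRIM2 (94.6) and STN1 (94.0). Of 14 genes of telomerase assembly and RNA processing 13 did, led by RUVBL2 (96.6) and RUVBL1 (93.5), a pair of ATPases needed for assembly. All 13 telomerase regulators and shelterin partners did, led by the nuclease gene DCLRE1B (95.3), whose product is held by TRF2, and the tankyrase gene TNKS (93.9), whose product releases TRF1 from telomeres. Of 14 genes of telomere chromatin and recombination 13 did, led by NBN (99.2) and MRE11 (96.3), of the break-sensing MRN complex. The 3 genes of the meiotic telomere complex, TERB1, TERB2 and MAJIN, had none in any library. Among 13 known regulators of the TERT promoter 11 had one throughout, led by the repressor gene MXD1 (98.8) and SP1 (98.3), while ETS1 and WT1 had none. ETS1 had no promoter entry, so only the ends of its span were searched, and a start inside the span would be missed. Its window held 10 peaks on average.

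Groups did not overlap at 8 of the 58 of these genes with a start peak, or 13.8%, beside 9.78% of all genes, and each had an exact permutation p of 0.1, two-sided, and an adjusted p of 1 (Benjamini-Hochberg over 12029 genes). SMG libraries were higher at 2, namely GAR1, a protein of the H/ACA particle that carries TERC (93.9 ± 0.236 in the SMG group against 90.0 ± 1.44 in the NG group, SD, n = 3 each), and SLX4, a nuclease scaffold (57.5 ± 3.36 against 34.8 ± 16.4 in the same order). They were lower at 6. The largest of these differences was at PARN, a deadenylase that trims TERC, with percentiles of 10.96, 28.6 and 0 in SMG 1 to SMG 3, against 64.4, 29.3 and 55.4 in NG 1 to NG 3. SMG 2 and NG 2 were less than 1 point apart there. The others were ZBTB10 (67.9 ± 5.10 in the SMG group against 79.7 ± 4.02 in the NG group), RAD50 (85.9 ± 3.32 against 93.9 ± 0.419), PAPD5 (74.9 ± 3.79 against 82.0 ± 3.62), NHP2 (85.2 ± 0.371 against 91.3 ± 3.29) and SP1 (97.7 ± 0.632 against 99.0 ± 0.292), all in that order of groups with n = 3 each.

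The genes most like each member, by Euclidean distance of the start percentile over the 6 libraries, were ATP5IF1 (3.38) and NAPB (4.86) for TERC, SFR1 (0.606) and CDK13 (0.791) for TERF1, RPL14 (8.14) and AURKB (13.3) for TERF2 and PANK2 (2.73) and PSAT1 (3.48) for POT1. For TINF2 they were FBRS (0.817) and IDI1 (0.898). For TERF2IP and ACD the nearest was the gene that shares the peak, KARS1 and PARD6A, at a distance of 0, followed by ZZZ3 (3.19) and TLR5 (3.14). TERT shared its 0 in every library with 8005 genes in all, itself included. Distances are small where all values are near 100, so those of different members do not rank closeness.

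Among the 5 members with a promoter entry, TERT had the most G+C-rich promoter. Its 300 bases held 77.3% G+C, above 92.3% of the 15841 promoters, against 70.0% at ACD, 64.0% at TINF2, 63.0% at TERF2IP and 60.3% at POT1. Of the 1423 promoters within 2.5 points of TERT's content, 50.4% had a start peak in all 6 libraries and 25.1% in none, so TERT stood with the smaller share. Within the same band around ACD 65.6% had one in all 6, around TINF2 63.7%, around TERF2IP 62.1% and around POT1 58.1%. Over bins of 5 points the share open in all 6 was highest at 65 to 70% G+C (66.3%) and lower on both sides, at 24.3% from 80 to 85%. The part of base composition in the missing TERT peak was not tested. Among genes without a start peak in any library, TERT had many window peaks: 8.0 on average over the 6 libraries, more than 96.5% of the 8005 such genes, whose median was 2. These counts were not scaled for window length, which was 142 kb at TERT. In merged regions TERT had 6 or 7 per library, since some regions were called as more than 1 peak.

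**Figure D4:**
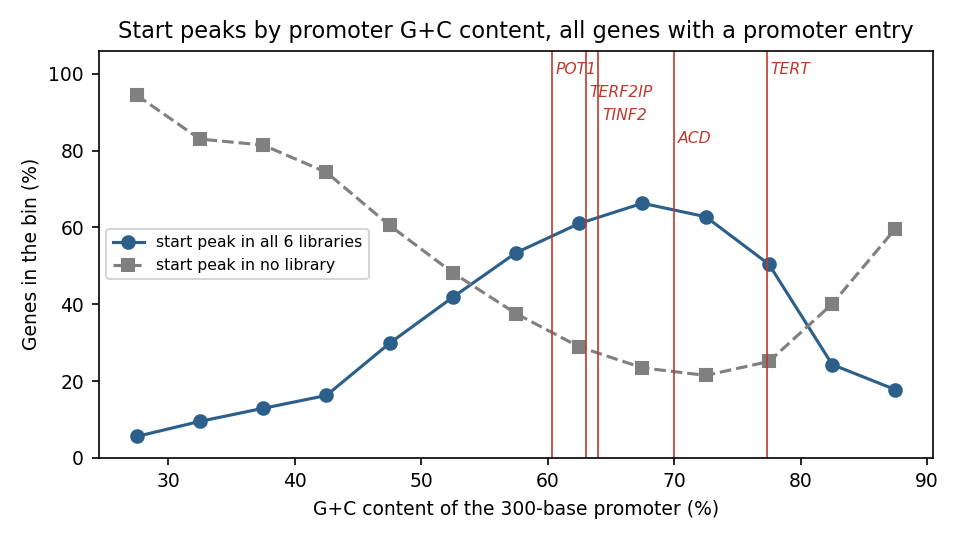
Share of genes (vertical axis, %) with a start peak in all 6 libraries or in none, by G+C content of the 300-base promoter in bins of 5 points, for bins with at least 20 genes; red lines mark the 5 members with a promoter entry. TERT lies at 77.3% G+C, to the right of the bin with the most open starts.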

How the data were processed

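The authors deposited 1 peak list per library, 10 columns without a header, in the narrowPeak layout. The submitters' processing notes name MACS2, SAMtools, Bowtie, BWA and FastQC, with hg38 as the build; versions, settings, duplicate handling and read shifting were not stated there. The deposited score is a whole number that equals 10 times the −log10 q-value, rounded down, in at least 99.955% of peaks, the deposited fold enrichment is a ratio of summit pileup over local background, and the deposited −log10 p-value comes from the same caller. Each list has its own peak names, 1 list per library; those of SMG 3 carry the word "normalized", whose meaning is not given. Summit pileups were solved from fold and p-value by the MACS2 formulas within 0.001 for 99.947 to 99.966% of peaks per library; no other depth was used, and precision is limited by 3 libraries a group.

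Gene spans and promoters came from RefSeq tables (GRCh38.p14), with 15841 genes placed by promoter entry and 4193 by both ends. Group means were compared by exact permutation over 10 splits, two-sided, smallest p 0.1, adjusted by Benjamini-Hochberg over all genes or regions, and the steps were tested on simulated data. The members and lists were chosen with earlier results of these data known. Named were all members, constant or group-only regions of their windows, the 2 highest genes per pathway list, those with no peak and those whose groups did not overlap, and the nearest genes by percentile. All 63 pathway names matched, with PAPD5, an older symbol, listed in the RefSeq table as TENT4B. Python 3.11.15, numpy 2.4.6, pandas 2.3.3 and scipy 1.17.1 were used.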

Additional observations from a re-analysis of the deposited data

How the results depend on the processing

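No alternative could bring an exact permutation p below 0.1, the smallest that the test allows, also with 1 library left out. That floor therefore says nothing of how well a result holds. ACD kept its direction in start percentile under all 12 alternatives that recomputed it and the replicate block; the cause of the changes below was not tested. Start-percentile differences changed sign at TERF2 with the stricter score of −log10 q at least 5 (−10.7) and with equal list length (−2.16), and at POT1 with equal list length (−0.199), ranking by fold (−0.291) and main chromosomes only (−0.00801). Covered-base differences changed sign with the 10 kb window at TERT (−6 bp), TERF1 (22.7) and TERF2 (−20.3), and at POT1 with the stricter score (120), where its peak count did too (0.333). Leaving out 1 library at a time gave start differences of −20.8 to 11.3 at TERF2, −2.72 to 2.26 at POT1 and −0.0363 to 0.685 at TINF2, and covered bases of −50.7 to 41.5 at TERF1, −124 to 367 at TERF2IP, −39.3 to 436 at TERC and −21.2 to 431 at ACD. Leaving out 1 library was added after seeing the data for 2 regions, and gave −19.7 to −7.54 at TM9SF1 and 16.2 to 35.7 at CARMIL2. The windows held 22 regions, 11 constant, at 10 kb and 80, 45 constant, at 100 kb. Members whose groups did not overlap numbered 2 with equal list length (TERC joined ACD), beside 11% of all genes with a start peak. By fold rank they numbered 0, beside 10.4%. Without 1 library they numbered 1 to 2, beside 17.8 to 20.4% of all genes with a start peak. These were ACD each time, joined by TINF2 without SMG 1 and TERF1 without SMG 2. Without NG 1, NG 2 and NG 3 the joining members were TERF2, TERC and TERF2IP, in that order. Over all genes the stricter score gave 535 with SMG higher, against 469, and 427 with SMG lower, against 707. The larger count thus changed sides there, and also without NG 2 (1193 higher and 1059 lower). Leaving out 1 library gave 670 to 1193 genes with SMG higher and 1059 to 1768 lower, as fewer libraries must separate. Without NG 3, 1 region, in CLPTM1L, was held by all SMG and no NG libraries, and 0 without any other library. Correlations of deviations between libraries of equal number were −0.0358, 0.0335 and −0.0801 for numbers 1, 2 and 3. Between unlike numbers they ran from −0.0676 to 0.0813. These values cannot tell whether libraries of equal number were prepared together, and the labels do not say. With the replicate block the ACD difference stayed 5.48 (exact sign-flip p = 0.25, the smallest 8 sign patterns allow) and no call changed.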

Other observations

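A peak with a high score percentile in the TERC window was called in SMG 3 alone. The region, 1015 bp from the MYNN start (chromosome 3, 169771814 to 169772381), covers the valine tRNA gene TRV-AAC1-1 (169772230 to 169772302) and stood at percentile 73.4 in SMG 3, with a deposited fold of 4.64 and a recovered summit pileup of 53 fragments. Of the 24310 regions held by 1 library over the whole genome, 14 reached that percentile. The other 11 single-library regions of the windows ran from percentile 1.88 to 40.0. By fold, those at POT1 in SMG 1 (5.40) and at TINF2 in SMG 2 (5.28) stood above the region in SMG 3, and the rest below it.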
